A study of Mus musculus with 21 samples.

Results

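The 5 isoacceptors of tRNA Arg carry arginine to the ribosome and differ in the anticodon that names them: ArgACG, ArgCCG, ArgCCT, ArgTCG and ArgTCT. Genes with one of these endings in their name were taken from the deposited tables of RNA polymerase III (Pol III) occupancy and of tRNA-seq, with the cytosines listed inside them after bisulphite treatment. They are 71 of 3283 tRNA loci: 30 for ArgTCT, 27 for ArgCCT, 6 for ArgACG, 5 for ArgTCG and 3 for ArgCCG. The tRNA-seq table lists 2012 sequences at 39 of these genes. Positions in the mouse genome build mm9 were set for 23 genes: 6 for ArgACG, 3 for ArgCCG, 5 for ArgCCT, 5 for ArgTCG and 4 for ArgTCT. In each of the 23, the anticodon of the name starts at position 34 of the tRNA, counted from 1 at its 5′ end.

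Arginine is among the amino acids with the most codons, and its tRNA genes are spread over several isoacceptors. A mature tRNA folds into an acceptor stem, a D arm, an anticodon arm, a variable loop and a TΨC arm, and receives a CCA end after transcription. NSun2 is a methyltransferase that places 5-methylcytosine (m5C) in tRNAs, mainly where the variable loop meets the TΨC arm. Nucleases such as angiogenin cut tRNAs in the anticodon loop, which leaves a 5′ and a 3′ fragment.

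The study asked how loss of NSun2 alters tRNA methylation and tRNA fragments in skin. Back skin came from male wild-type (WT) and NSun2−/− mice at postnatal day 25, when the growing phase of the hair cycle starts. NSun2−/− mice carry a gene trap in intron 8 of Nsun2 (GGTC clone D014D11) on a C57Bl6/J CBA F1 background, and the breedings that gave them also gave the WT mice. Small RNA for tRNA-seq and bisulphite-treated RNA were sequenced from 4 libraries per genotype each, and Pol III ChIP-seq comprised 2 libraries of WT and 1 of NSun2−/− skin, each from 3 pooled mice, with 1 input for either genotype. The titles of the tRNA-seq libraries count the strain name upward from library to library, so the name in the breeding notes is used here.

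The targeted gene was looked at first. In the bisulphite libraries, which list a cytosine only where at least 10 reads cover it, 31, 23, 48 and 43 cytosines of Nsun2 were listed in WT replicates 1 to 4. Each of the 4 NSun2−/− libraries listed 0. The genotype labels and this gene therefore go together in all 8 bisulphite libraries, while the tRNA-seq and Pol III tables hold no mRNA to check.

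Skin markers were present in each bisulphite library. Krt5 of basal keratinocytes had 323, 295, 372 and 306 listed cytosines in WT replicates 1 to 4, and 466, 293, 475 and 409 in NSun2−/− replicates 1 to 4. For Krt14, also of basal keratinocytes, the numbers were 272, 256, 306 and 302 in WT and 366, 234, 377 and 347 in NSun2−/− skin. Krt10 of suprabasal keratinocytes had 205, 155, 216 and 222 in WT and 261, 182, 303 and 260 in NSun2−/− skin. Col1a1 of dermal fibroblasts had 2065, 2141, 1845 and 1855 in WT and 3286, 1847, 3083 and 2684 in NSun2−/− skin. NSun2−/− replicate 2 had the lowest number of each marker among the NSun2−/− libraries. It also lists the fewest cytosines in all, since the libraries list 176613, 156018, 196679 and 187471 in WT and 665049, 110324, 658169 and 385574 in NSun2−/− skin. In bulk skin, fewer cells of a type and less RNA per cell cannot be told apart.

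Pol III transcribes tRNA genes, and its occupancy shows which of the 71 loci are in use. The ChIP libraries hold 36866 and 63136 counts for WT and 95112 for NSun2−/− skin, and the inputs, sequenced without precipitation, 15918 and 14483. Arg loci took 6.50% of the counts in WT replicate 1 (95% Wilson interval 6.25% to 6.75%) and 8.23% in WT replicate 2 (8.01% to 8.44%). They took 9.17% (8.99% to 9.35%) in the NSun2−/− library. In the inputs the same loci took 2.22% for WT and 2.24% for NSun2−/− skin. These intervals cover counting error only. The share lay above both inputs in each ChIP library and was highest in the NSun2−/− library.

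A locus was called bound in WT skin when each WT library held 10 or more reads there and their reads per 1000000 counts (RPM) were 2-fold those of the WT input or more, after a pseudocount of 1. By this rule 18 of the 71 Arg loci were bound (25.4%), against 222 of all 3283 loci (6.76%). All 3 ArgCCG and all 5 ArgTCG loci were bound, 5 of 6 for ArgACG, 3 of 27 for ArgCCT and 2 of 30 for ArgTCT. The bound ArgACG loci were chr9.trna783, chr14.trna209, chr13.trna973, chr13.trna953 and chr13.trna951. For ArgCCG they were chr11.trna945, chr17.trna994 and chr13.trna997, and for ArgCCT chr6.trna107, chr17.trna995 and chr11.trna1022. For ArgTCG they were chr7.trna387, chr11.trna1023, chr13.trna74, chr13.trna948 and chr13.trna949, and for ArgTCT chr3.trna628 and chr19.trna637. ArgCCT and ArgTCT, with the most loci, thus had the smallest bound shares. The minimum of 10 reads was met at 5 of the 27 ArgCCT loci and at 4 of the 30 ArgTCT loci.

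Among ArgACG loci, chr9.trna783-ArgACG had the highest mean occupancy in WT skin, with 4123 and 8696 RPM in WT replicates 1 and 2 and 9305 RPM (95% Wilson interval 8714 to 9935) in NSun2−/− skin. For ArgCCG, the top locus chr11.trna945-ArgCCG had 3933 and 7191 RPM in WT and 7991 RPM (7444 to 8577) in NSun2−/− skin. For ArgCCT, chr6.trna107-ArgCCT had 6157 and 6494 RPM in WT and 7906 RPM (7363 to 8490) in NSun2−/− skin. At all 3 loci the NSun2−/− value exceeded both WT values, and for ArgACG and ArgCCG the WT libraries lay farther from each other than WT replicate 2 from the NSun2−/− library. For ArgTCG, chr7.trna387-ArgTCG had 3581 and 5908 RPM in WT and 6771 RPM (6269 to 7312) in NSun2−/− skin. For ArgTCT, chr3.trna628-ArgTCT had 3987 and 4308 RPM in WT and 6214 RPM (5734 to 6733) in NSun2−/− skin. At these loci too the NSun2−/− value exceeded both WT values. The same order held for the sum over all 222 bound loci, with 664596 and 713396 RPM in WT replicates 1 and 2 and 801192 RPM in NSun2−/− skin. A higher NSun2−/− value is thus not particular to Arg loci.

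These 5 loci are shown because they hold the most Pol III of their isoacceptors. Positions 48 to 50 also differ among them, except that the ArgCCG and ArgCCT loci both have TGT there. Sequences run 5′ to 3′ on the strand of the gene in mm9, and capitals mark the anticodon and positions 48 to 50, where m5C of NSun2 lies in tRNAs that carry it. The lines give chr9:123438543-123438615 (minus strand), chr11:106874180-106874252 (plus), chr6:38483931-38484003 (plus), chr7:86611305-86611377 (plus) and chr3:121995866-121995950 (minus), the last with an intron after the anticodon.
chr9.trna783-ArgACG: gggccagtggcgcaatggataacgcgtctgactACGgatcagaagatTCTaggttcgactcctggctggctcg
chr11.trna945-ArgCCG: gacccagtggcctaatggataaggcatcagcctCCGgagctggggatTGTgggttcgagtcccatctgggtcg
chr6.trna107-ArgCCT: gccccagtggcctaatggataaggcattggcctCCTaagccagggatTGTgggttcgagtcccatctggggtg
chr7.trna387-ArgTCG: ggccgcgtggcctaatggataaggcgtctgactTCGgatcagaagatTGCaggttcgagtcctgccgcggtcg
chr3.trna628-ArgTCT: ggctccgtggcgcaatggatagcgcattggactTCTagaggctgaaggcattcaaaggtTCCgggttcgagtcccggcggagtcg

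Over the 23 located genes, 0 have a cytosine at position 48, 6 at position 49 and 6 at position 50. Those with a cytosine at position 49 are 5 of the 6 ArgACG genes and chr3.trna628-ArgTCT. A cytosine at position 49 is thus present in 2 of the 5 isoacceptors, while ArgCCG and ArgCCT genes lack a cytosine at all 3 positions.

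For the 18 bound Arg loci, the log2 ratio of NSun2−/− RPM over the WT mean had a median of 0.33, from −0.21 at chr13.trna997-ArgCCG to 0.58 at chr3.trna628-ArgTCT. Over all 222 bound loci it was 0.16. The ratio of WT replicate 2 to WT replicate 1 had a median of 0.21 over the Arg loci and of 0.09 over all. Against WT replicate 1 alone the Arg median was 0.50, against WT replicate 2 alone 0.13, and with scaling to the total over bound loci 0.11. The difference between the genotypes was thus of the size of that between the WT libraries. In the titles, WT replicate 2 and the NSun2−/− library carry neighbouring library numbers, whereas WT replicate 1 has an earlier one. The title of WT replicate 1 also reads PolII in place of PolIII, while its antibody label names the Pol III subunit POLR3A as for the others. With 1 NSun2−/− library there is no replicate check and no test.

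The tRNA-seq table gives counts per sequence, over library totals of 17944789, 17352126, 24270307 and 22429614 in WT and 19867441, 36749727, 23665102 and 17556844 in NSun2−/− skin. Sequences with a total under 20 counts over all libraries are not in the table. All libraries' counts of 1 sequence were often multiples of the same number above 1, which held for 59.2% of 650 Arg sequences of 3′ fragments and 8.11% of 74 of 5′ fragments. Counts are therefore not numbers of independent reads, and levels of isoacceptors and fragment types can be set against each other only roughly. A ratio of 1 sequence between libraries does not change with such a factor. Values are counts per 1000000 tRNA-seq counts of the library (CPM), and the located Arg genes are of 1 length without introns, 73 nt.

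Arg sequences took 0.845%, 2.61%, 1.20% and 1.57% of all counts in WT replicates 1 to 4, and 0.663%, 0.367%, 0.579% and 0.565% in NSun2−/− replicates 1 to 4. The 4 NSun2−/− values lay below the 4 WT values, and WT replicate 1 came closest to them. The summed Arg reads thus took a smaller part of the NSun2−/− libraries, with most of the distance given by WT replicates 2 to 4.

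ArgTCT, which reads the codons AGA and AGG, was the most abundant of the Arg isoacceptors in each library. It had 4040, 18880, 8070 and 10442 CPM in WT replicates 1 to 4, and 2371, 1411, 2584 and 2411 CPM in NSun2−/− replicates 1 to 4. All NSun2−/− values lay below all WT values, and WT replicates 1 and 2 differed more from each other than WT replicate 1 from NSun2−/− skin. In WT skin, the mean was 10358 CPM ± 6266 (SD, n = 4) for ArgTCT, 1776 ± 573 for ArgCCT, 1666 ± 372 for ArgACG, 1136 ± 360 for ArgTCG and 637 ± 185 for ArgCCG. ArgCCT, ArgACG and ArgTCG follow each other within their spread. In NSun2−/− skin the order was 2194 CPM ± 530 (SD, n = 4) for ArgTCT, 1081 ± 265 for ArgACG, 1035 ± 284 for ArgCCT, 676 ± 212 for ArgTCG and 448 ± 113 for ArgCCG. ArgTCT led in both genotypes, and ArgACG and ArgCCT did not differ beyond their spread.

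With edgeR's quasi-likelihood test on all 50 isoacceptors that passed the filter on low counts, 10 had an adjusted p under 0.05 (20.0%), and ArgTCT was among them, 1 of the 5 Arg isoacceptors. ArgTCT fell by 1.77 on the log2 scale, with an SE of 0.36 and an edgeR adjusted p of 0.00390, and was lower in all 4 NSun2−/− libraries than in any WT library. The other 4 had log2 differences of −0.21 for ArgACG, −0.07 for ArgCCG, −0.35 for ArgCCT and −0.32 for ArgTCG, none past the threshold (lowest edgeR adjusted p 0.283), and that of ArgCCG turned to 0.05 with all counts divided by 5. The median over the 5 was −0.32, against 0.01 over all 50 isoacceptors. Scaling by the total counts of a library moved the median of all to −0.38 and ArgTCT to −2.24. ArgTCT kept its call in the same test without each of the 8 libraries, with values from −1.95 to −1.51.

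The reads were divided by the part of the tRNA they cover. Reads of 25 to 40 nt were called 5′ fragments where they start at the first nucleotide of the gene, and 3′ CCA fragments where they end in CCA after its last nucleotide. The share of 3′ CCA fragments among Arg reads was 82.5% ± 7.52 (SD, n = 4) in WT and 58.5% ± 6.60 in NSun2−/− skin, and that of 5′ fragments 2.43% ± 0.939 and 9.30% ± 3.39. In the pooled reads of all other isoacceptors, the share of 3′ CCA fragments was 1.75% ± 0.698 in WT and 0.693% ± 0.281 in NSun2−/− skin, and that of 5′ fragments ranged from 75.0% to 84.9% in WT and from 84.6% to 93.8% in NSun2−/− libraries. Summed Arg reads, of which ArgTCT gives the most, thus held more 3′ CCA than 5′ fragments in each library, and the pool of the others more 5′ fragments, which does not describe each isoacceptor in it. ArgACG in NSun2−/− skin was an exception, with more 5′ than 3′ CCA fragments in each of the 4 libraries.

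Arg took a large share of the 3′ class, with 23.9%, 48.3% and 50.8% of all 3′ CCA fragments in WT replicates 1 to 3 and a value just under that of replicate 2 in WT replicate 4. In NSun2−/− replicates 1 to 4 it was 32.7%, 37.5%, 34.2% and 27.3%. These groups overlap, since WT replicate 1 lay below all NSun2−/− libraries. Over all tRNA-seq counts, Arg 3′ CCA fragments took 0.611%, 2.37%, 0.997% and 1.32% in WT and 0.406%, 0.178%, 0.360% and 0.350% in NSun2−/− skin, without overlap. Arg 5′ fragments took 0.0279%, 0.0309%, 0.0358% and 0.0353% in WT and 0.0526%, 0.0522%, 0.0377% and 0.0481% in NSun2−/− skin. Here each NSun2−/− library was above each WT library, the opposite order to that of the 3′ parts.

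**Figure D1:**
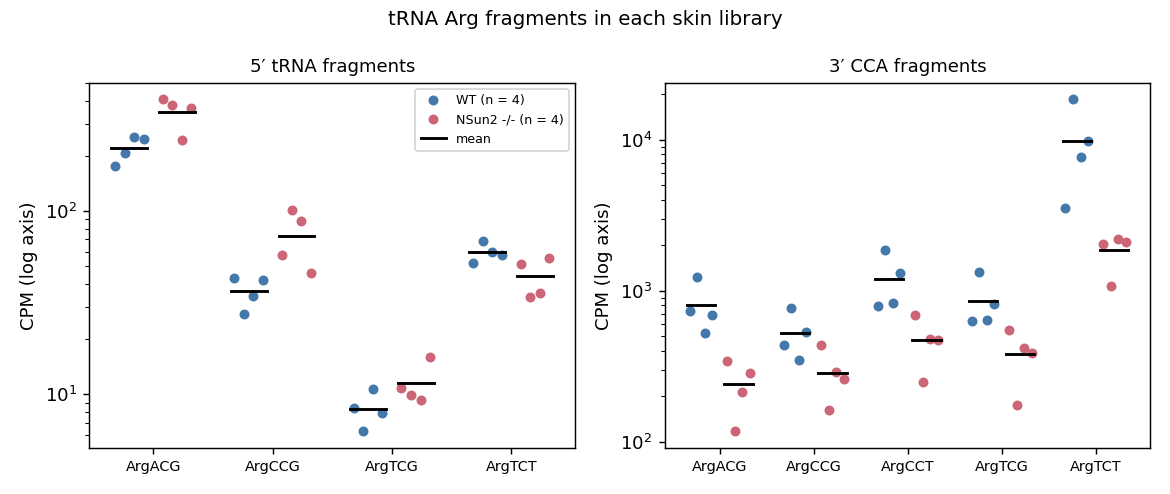
Each point is a library, with CPM of all tRNA-seq counts on a log axis, for 5′ fragments (left) and 3′ CCA fragments (right) of the Arg isoacceptors in WT and NSun2−/− skin; bars are means. ArgTCT 3′ CCA fragments lie between 3521 and 18475 CPM in WT and between 1081 and 2198 in NSun2−/− skin, and ArgCCG 5′ fragments between 27.4 and 43.0 CPM in WT and between 45.9 and 101 in NSun2−/− skin.

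Among 5′ fragments, ArgACG was the most abundant Arg isoacceptor. It had 175, 207, 253 and 246 CPM in WT replicates 1 to 4, and 406, 377, 244 and 364 CPM in NSun2−/− replicates 1 to 4. NSun2−/− replicates 1, 2 and 4 were above all WT libraries, while replicate 3 lay within the WT range. For ArgCCG the values were 43.0, 27.4, 34.2 and 41.8 CPM in WT and 57.6, 101, 88.1 and 45.9 CPM in NSun2−/− skin. These groups did not overlap, with NSun2−/− replicate 4 close to WT replicate 1. ArgTCT had 51.9, 68.5, 59.7 and 57.4 CPM in WT and 51.6, 35.5 and 55.4 CPM in NSun2−/− replicates 1, 3 and 4, with replicate 2 lowest. ArgTCG was rare, with 8.41, 6.28, 10.7 and 7.94 CPM in WT and 10.8, 9.93, 9.34 and 15.9 CPM in NSun2−/− skin. Both groups overlapped for these isoacceptors, and ArgCCT had no 5′ fragment in the table.

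edgeR called 14 of 42 isoacceptors in this class (33.3%), and 2 of the 4 Arg isoacceptors tested, ArgACG and ArgCCG. ArgCCG 5′ fragments rose by 1.10 on the log2 scale (SE 0.28), with an edgeR adjusted p of 0.00778, and were higher in all 4 NSun2−/− libraries. The call held without each of the 8 libraries, with differences from 0.71, without NSun2−/− replicate 2, to 1.20. ArgACG had a difference of 0.77 (SE 0.27) with an edgeR adjusted p of 0.0323. This call is less firm, since with total scaling the difference was 0.66 and the adjusted p 0.0568. Without WT replicates 1, 2 and 4 the differences were 0.51, 0.70 and 0.84 (adjusted p 0.171, 0.0993 and 0.0755). Without NSun2−/− replicates 1, 2 and 4 they were 0.70, 0.61 and 0.52 (adjusted p 0.0878, 0.123 and 0.165), so the difference was smaller mainly without WT replicate 1 or NSun2−/− replicate 4. ArgTCG, at 0.57, and ArgTCT, at −0.29, did not pass (edgeR adjusted p 0.130 and 0.337). Without NSun2−/− replicate 4 they were 0.13 and −0.68, and ArgTCT was −0.54 without WT replicate 1. The median over the 4 Arg isoacceptors was 0.67, against 0.04 over all 42, which total scaling moved to −0.07, and without NSun2−/− replicate 4 it was 0.32, against −0.21 over all.

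Over the 8 libraries, the 3 isoacceptors whose log2 CPM of 5′ fragments went most like that of the summed Arg isoacceptors were ThrTGT (Pearson r 0.73), TrpCCA (0.68) and HisGTG (0.68). They were taken from 37 isoacceptors, and the points share their libraries and totals, so the values describe likeness only.

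The most abundant 5′ fragment of ArgACG, which matches all 6 located genes, ends at position 32. It had 64.1, 67.3, 86.7 and 96.3 CPM in WT replicates 1 to 4, and 161, 177, 141 and 161 CPM in NSun2−/− replicates 1 to 4. Every NSun2−/− library was above every WT library. Among 12874 sequences tested with edgeR, its log2 difference was 1.44 (SE 0.37), with an adjusted p of 0.0915. The top ArgCCG fragment, of chr11.trna945-ArgCCG, had 18.1, 9.97, 16.4 and 17.6 CPM in WT and 24.7, 43.3, 39.3 and 21.7 CPM in NSun2−/− skin, again without overlap and without passing the test (edgeR log2 difference 1.53, adjusted p 0.165). The top fragments of ArgTCG and ArgTCT had means of 2.93 and 15.6 CPM in WT and 3.35 and 12.7 CPM in NSun2−/− skin.

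These 5′ fragments are shown because they end inside the anticodon loop, before the anticodon. They run 5′ to 3′ and stand in lower case throughout, since a capital marks a mismatch to the gene and they have none. The gene chosen for ArgTCG lies at chr11:115275093-115275165 (plus strand), and the other genes are placed above.
ArgACG 5′ fragment of chr9.trna783-ArgACG and 5 other genes: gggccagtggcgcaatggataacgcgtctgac
ArgCCG 5′ fragment of chr11.trna945-ArgCCG: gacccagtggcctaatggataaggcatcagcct
ArgTCG 5′ fragment of chr11.trna1023-ArgTCG: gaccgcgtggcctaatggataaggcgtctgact
ArgTCT 5′ fragment of chr3.trna628-ArgTCT: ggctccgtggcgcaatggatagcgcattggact

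For 3′ CCA fragments, the level depends strongly on the scaling. ArgTCT had 3521, 18475, 7626 and 9834 CPM in WT replicates 1 to 4, and 2040, 1081, 2198 and 2101 CPM in NSun2−/− replicates 1 to 4. Every NSun2−/− library was below every WT library, and NSun2−/− replicate 2 was lowest. ArgACG had 736, 1234, 527 and 692 CPM in WT and 343, 117, 214 and 286 CPM in NSun2−/− skin, again without overlap. ArgCCT had 793, 1853, 830 and 1301 CPM in WT and 694, 247, 480 and 470 CPM in NSun2−/− skin. ArgTCG had 627, 1332, 635 and 816 CPM in WT and 547, 175, 415 and 384 CPM in NSun2−/− skin. Both kept the groups apart, with WT replicate 1 and NSun2−/− replicate 1 nearest to each other. ArgCCG had 437, 769, 348 and 533 CPM in WT and 435, 162, 290 and 260 CPM in NSun2−/− skin. Here NSun2−/− replicate 1 lay above WT replicate 3, so the groups overlapped.

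Scaled with edgeR's TMM factors, 6 of 39 isoacceptors were called in this class (15.4%) and 0 of the 5 Arg isoacceptors, with 1 Arg isoacceptor at an unadjusted edgeR p under 0.05 and 1 called by DESeq2. That was ArgCCG, with an edgeR log2 difference of 0.67 (adjusted p 0.0550) and a DESeq2 difference of 0.66 (adjusted p 0.0206), which turned to −0.86 with total scaling. Without NSun2−/− replicate 4, edgeR called ArgCCG as well (0.79, adjusted p 0.0192). ArgTCT had an edgeR difference of −0.81 (SE 0.38, adjusted p 0.160) and was called only without WT replicate 1 among the 8 libraries (−1.06, adjusted p 0.00400). Scaling by total counts moved the median over all 39 isoacceptors to −1.56, from 0.04. With this scaling edgeR called 22 of all 39 isoacceptors, each lower in NSun2−/− skin, and 3 of the 5 Arg isoacceptors: ArgTCT at −2.41, ArgACG at −1.73 and ArgCCT at −1.34 (adjusted p 0.00197, 0.00774 and 0.0327). ArgCCT was at 0.18 with TMM factors, so its direction flips between the scalings, as did that of ArgTCG with 0.33 and −1.16. With TMM factors, which set the differences relative to the class, the Arg isoacceptors lay between −0.81 and 0.67.

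The 3′ CCA fragments can be followed to genes. Each fragment was given to the gene, or set of genes, that it matches with the fewest mismatches, a comparison chosen after seeing the data. Of 85 sets, edgeR called 10 (11.8%), among them 3 of the 22 Arg sets. The median over the Arg sets was −0.02, against 0.01 over all 85, and with total scaling −1.49 against −1.51. Of the Arg sets called, 2 belong to ArgTCT and were lower in NSun2−/− skin, and 1 to ArgCCG.

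The largest difference was that of chr13.trna985-ArgTCT, with 345, 2520, 949 and 1301 CPM in WT replicates 1 to 4, and 80.7, 22.6, 54.3 and 75.4 CPM in NSun2−/− replicates 1 to 4. The groups lay far apart, since the highest NSun2−/− library was below the lowest WT library, WT replicate 1. It fell by 2.94 on the log2 scale (SE 0.43, edgeR adjusted p 0.00262), and by 4.46 with total scaling. The call held without each of the 8 libraries, with adjusted p up to 0.0183. Reads that match chr13.trna985-ArgTCT and chr19.trna637-ArgTCT equally well had 6.41, 17.4, 5.11 and 7.04 CPM in WT and 0.352, 0.218, 0.592 and 0.797 CPM in NSun2−/− skin. They were lower in all 4 NSun2−/− libraries (edgeR log2 difference −2.56, SE 0.48, adjusted p 0.00970).

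The other ArgTCT genes had smaller differences. chr19.trna637-ArgTCT had 1555, 9510, 3605 and 4685 CPM in WT and 881, 487, 1035 and 1004 CPM in NSun2−/− skin, without overlap. Its edgeR difference of −0.86 did not pass (adjusted p 0.149), but did without WT replicate 1 (−1.30, adjusted p 0.00724). chr11.trna1818-ArgTCT had 92.1, 683, 269 and 315 CPM in WT and 70.0, 27.2, 62.7 and 73.7 CPM in NSun2−/− skin, with WT replicate 1 just above the NSun2−/− libraries. Its difference of −0.97 (edgeR adjusted p 0.136) became −1.43 without WT replicate 1 (adjusted p 0.00146). chr3.trna628-ArgTCT had 1522, 5740, 2796 and 3524 CPM in WT and 1008, 543, 1045 and 946 CPM in NSun2−/− skin. It was also lower in all 4 NSun2−/− libraries in CPM, while the TMM-scaled difference of −0.34 did not pass (edgeR adjusted p 0.502). It was −0.74 without WT replicate 1 (adjusted p 0.0755), −0.64 without NSun2−/− replicate 2 and −0.62 without NSun2−/− replicate 3, and the differences between these genes were not tested.

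**Figure D2:**
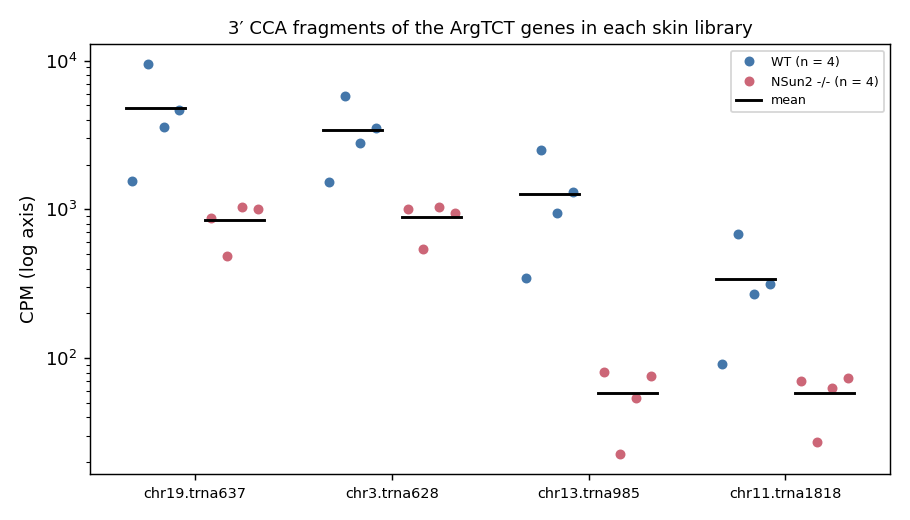
Each point is a library, with CPM of all tRNA-seq counts on a log axis, for the 3′ CCA fragments of the 4 located ArgTCT genes in WT and NSun2−/− skin; bars are means. chr13.trna985-ArgTCT lies between 345 and 2520 CPM in WT and between 22.6 and 80.7 CPM in NSun2−/− skin.

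Shares within ArgTCT need no scaling between libraries. chr13.trna985-ArgTCT gave 9.79%, 13.6%, 12.4% and 13.2% of ArgTCT 3′ CCA fragments in WT and 3.95%, 2.09%, 2.47% and 3.59% in NSun2−/− skin. Its share was lower in every NSun2−/− library. chr3.trna628-ArgTCT gave 43.2%, 31.1%, 36.7% and 35.8% in WT and 49.4%, 50.3%, 47.6% and 45.0% in NSun2−/− skin. Its share was higher in every NSun2−/− library, and since shares add up, these values are not independent. The groups overlapped for chr19.trna637-ArgTCT, with means of 47.6% in WT and 45.8% in NSun2−/− skin, and for chr11.trna1818-ArgTCT, with means of 3.26% and 3.08%. The genes were named after their shares were seen, so no test is given. The one ArgCCG set called, chr17.trna994-ArgCCG, had 44.4, 74.9, 30.6 and 51.8 CPM in WT and 44.9, 14.7, 27.0 and 26.6 CPM in NSun2−/− skin, which overlap. Its edgeR difference of 0.69 (adjusted p 0.0434) turned to −0.83 with total scaling, and was called only without NSun2−/− replicate 4 (0.0436) when a library was left out, with adjusted p up to 0.269 and a difference of 0.42 without NSun2−/− replicate 2.

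The 4 ArgTCT genes are shown because they differ at few positions. Of the 11 ArgTCT genes in the tRNA-seq table they are the only ones located, so fragments could be matched to no other ArgTCT gene, with up to 4 mismatches allowed. Capitals mark the anticodon and positions 48 to 50, and each gene has an intron, of 13, 13, 14 and 12 nt in the order of the lines. The genes lie on the minus strand at chr13:22009031-22009116, chr19:12086078-12086163, chr11:68936984-68937070 and chr3:121995866-121995950 in mm9.
chr13.trna985-ArgTCT: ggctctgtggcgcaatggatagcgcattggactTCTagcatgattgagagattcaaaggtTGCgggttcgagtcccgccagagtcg
chr19.trna637-ArgTCT: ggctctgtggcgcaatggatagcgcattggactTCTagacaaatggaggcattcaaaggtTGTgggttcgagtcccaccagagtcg
chr11.trna1818-ArgTCT: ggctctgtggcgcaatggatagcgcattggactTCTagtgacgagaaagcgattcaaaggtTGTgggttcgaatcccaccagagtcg
chr3.trna628-ArgTCT: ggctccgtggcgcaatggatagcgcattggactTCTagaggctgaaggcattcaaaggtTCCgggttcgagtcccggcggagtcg

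Counted from 1 at the tRNA 5′ end and without the intron, chr13.trna985-ArgTCT differs from chr19.trna637-ArgTCT by T50C and A64G. chr11.trna1818-ArgTCT differs from it by G59A. chr3.trna628-ArgTCT differs from it by T6C, G49C, T50C, A64G, C65G and A67G. The differences lie in the TΨC arm and the acceptor stem, so a 3′ fragment tells the genes apart where it covers them.

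chr3.trna628-ArgTCT had more Pol III than chr19.trna637-ArgTCT in all 3 ChIP libraries, while it had fewer reads in each WT library and in NSun2−/− replicate 4, and more in NSun2−/− replicates 1 to 3. chr13.trna985-ArgTCT had 895 and 792 RPM in WT and 452 RPM (95% Wilson interval 336 to 609) in NSun2−/− skin, from 33, 50 and 43 reads. With 1.38-fold over the WT input it was not called bound. The NSun2−/− value lay below both WT values and also below the 690 RPM of the NSun2−/− input. All bound loci together took more of the NSun2−/− library than of either WT library, which leaves a smaller part for loci not bound. What the lower value reflects was not tested. chr19.trna637-ArgTCT had 2197 and 2994 RPM in WT and 2828 RPM in NSun2−/− skin, which is within the WT range. chr11.trna1818-ArgTCT, also not called bound, had 624 and 586 RPM in WT and 547 RPM in NSun2−/− skin.

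At the level of single sequences, edgeR called 314 of 12874 (2.44%) and 1 of the 11 Arg sequences that are the most abundant of their isoacceptor and class. Of the 11, 6 had an unadjusted edgeR p under 0.05, against 1885 of all 12874, and their median log2 difference was −0.25, against −0.08 over all, or −0.67 against −0.47 with total scaling. The sequence called is an ArgTCT 3′ CCA fragment of chr19.trna637-ArgTCT that starts at position 40 and makes up 16.3% of its class. It had 483, 3485, 1240 and 1663 CPM in WT and 207, 138, 286 and 240 CPM in NSun2−/− skin. All NSun2−/− libraries were lower than all WT libraries, with a log2 difference of −2.56 (SE 0.53, edgeR adjusted p 0.0460). With a library left out it was called only without WT replicate 1, where 3 of the 11 were called, and its adjusted p ranged from 0.0190 to 0.126. The ArgACG 3′ fragment had 50.1, 200, 96.4 and 111 CPM in WT and 36.2, 20.8, 22.1 and 28.1 CPM in NSun2−/− skin, without overlap (edgeR log2 difference −1.68, adjusted p 0.0776). The top 3′ fragments of ArgCCG, ArgCCT and ArgTCG had edgeR differences of −0.76, −1.30 and −0.87, which did not pass.

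The 3′ fragments are shown because they carry a mismatch at position 58, in the TΨC loop, where tRNAs can hold 1-methyladenosine. Capitals mark the mismatch, which is A58T in the ArgTCT, ArgCCG and ArgCCT sequences and A58G in those of ArgACG and ArgTCG.
ArgTCT 3′ fragment of chr19.trna637-ArgTCT: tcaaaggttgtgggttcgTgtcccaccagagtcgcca
ArgACG 3′ fragment of chr14.trna209-ArgACG and 2 other genes: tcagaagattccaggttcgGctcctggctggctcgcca
ArgCCG 3′ fragment of chr13.trna997-ArgCCG: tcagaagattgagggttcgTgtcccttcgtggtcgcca
ArgCCT 3′ fragment of chr6.trna107-ArgCCT: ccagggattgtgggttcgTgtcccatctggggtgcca
ArgTCG 3′ fragment of chr7.trna387-ArgTCG: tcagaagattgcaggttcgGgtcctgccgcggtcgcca

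A read counted as mature when it had the CCA end and spanned 90% or more of its gene. For ArgACG, ArgTCG and ArgTCT, 0 such sequences were listed, and for ArgTCT no spliced one could be, since 0 sequences span the joint left by the intron. ArgCCG had 11.7, 11.2, 8.03 and 8.03 CPM in WT and 9.56, 10.6, 15.4 and 7.97 CPM in NSun2−/− skin. For ArgCCT the values were 103, 82.5, 18.2 and 35.4 CPM in WT and 22.5, 5.96, 24.1 and 89.4 CPM in NSun2−/− skin. Both groups overlapped, and the ArgCCT libraries of 1 genotype differed more than the genotypes. edgeR called 0 of 18 isoacceptors (0%), with 3 at an unadjusted p under 0.05, of which 1 was Arg, and DESeq2 called 0. ArgCCG had an edgeR difference of 1.25 (adjusted p 0.255) and of 0.16 with total scaling, and ArgCCT of 0.04 (adjusted p 0.949) with TMM factors and −0.75 with total scaling. Total scaling moved the median of all 18 from −0.07 to −0.88.

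How the reads of an isoacceptor divide into classes does not depend on scaling. 5′ fragments of ArgACG were 11.1%, 9.43%, 19.1% and 15.8% of its reads in WT and 28.5%, 43.8%, 27.6% and 31.6% in NSun2−/− skin. Its 3′ CCA fragments were 46.5%, 56.2%, 39.8% and 44.3% in WT and 24.1%, 13.6%, 24.1% and 24.8% in NSun2−/− skin. Neither pair of groups overlapped, with 5′ fragments higher and 3′ fragments lower in each NSun2−/− library. For ArgCCG, 5′ fragments were 7.59%, 3.12%, 7.79% and 6.31% in WT and 9.75%, 29.2%, 18.2% and 12.4% in NSun2−/− skin. For ArgTCT they were 1.28%, 0.363%, 0.740% and 0.550% in WT and 2.18%, 2.41%, 1.37% and 2.30% in NSun2−/− skin. These groups did not overlap either, while those of ArgTCG did (means 0.813% and 1.84%). The 3′ CCA share was lower in all NSun2−/− libraries for each Arg isoacceptor. For ArgTCT this was by a very small distance, since WT replicate 1 and NSun2−/− replicate 4 both round to 87.1%. The means in WT and NSun2−/− skin were 81.1% and 62.7% for ArgCCG, and 65.9% and 44.5% for ArgCCT, 74.0% and 54.7% for ArgTCG, and 93.4% and 83.7% for ArgTCT.

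Over 104 such shares of 45 isoacceptors, the two-sided exact permutation test called 0 after adjustment (0%). Unadjusted, 36 of the 104 and 8 of the 11 Arg shares had an exact p under 0.05, each Arg share with the smallest possible value, 0.0286, which became 0.0825.

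The ratio to other isoacceptors within a library also needs no scaling. Of all reads, the log2 ratio of summed Arg to LysCTT was −1.62, −0.31, −1.45 and −1.06 in WT and −1.81, −2.51, −2.09 and −1.98 in NSun2−/− skin. To GlyGCC it was −6.05, −4.38, −5.74 and −5.31 in WT and −6.42, −7.41, −6.52 and −6.45 in NSun2−/− skin. Both were lower in all NSun2−/− libraries, and the ratio to LysTTT overlapped between genotypes. Of 5′ fragments, the ratio to LysCTT was −6.12, −6.43, −6.35 and −6.36 in WT and −5.15, −5.18, −5.81 and −5.27 in NSun2−/− skin. To LysTTT it was −1.02, −0.97, −0.71 and −0.61 in WT and 0.86, −0.15, 0.27 and 1.07 in NSun2−/− skin. To GlyGCC it was −10.91, −10.71, −10.76 and −10.74 in WT and −10.03, −10.20, −10.43 and −9.96 in NSun2−/− skin. Arg 5′ fragments were thus higher against all 3 in each NSun2−/− library, whereas Arg reads as a whole were lower against LysCTT and GlyGCC. The groups overlapped in the other 6 of the 11 ratios computed, which differed in direction. Of 3′ CCA fragments, the mean ratio to LysTTT was 8.57 in WT and 7.68 in NSun2−/− skin, and that to GlyGCC 2.99 and 3.38. Of mature reads, it was −3.75 and −3.83 to LysCTT, 5.03 and 5.32 to LysTTT, and −2.29 and −1.28 to GlyGCC. No test is given for these sums over Arg, which were chosen with results known.

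The positions at which fragments start and end were compared as read, and what sets them was not tested. Of ArgTCT 3′ CCA fragments, 61.7%, 70.2%, 64.2% and 67.7% started at position 40 in WT and 47.2%, 53.4%, 52.8% and 48.2% in NSun2−/− skin. Starts at position 39 were 33.1%, 27.8%, 33.5% and 30.2% in WT and 45.7%, 41.8%, 43.3% and 47.3% in NSun2−/− skin. The groups lay apart at both positions, with the start 1 nucleotide further 5′ more frequent in each NSun2−/− library. For the other isoacceptors with starts at position 39 among the most frequent, their mean share was lower in NSun2−/− skin, with overlap: 41.2% and 31.8% for ArgACG, 42.3% and 36.4% for ArgCCG, and 55.6% and 52.8% for ArgTCG. The intron of the 4 located ArgTCT genes lies after position 37, and 0 listed sequences span the joint of the spliced tRNA with at least 5 bases on each side, so starts further 5′ in spliced ArgTCT are not seen here. ArgACG 5′ fragments ended at position 32 in a mean of 53.9% in WT and 65.6% in NSun2−/− skin, and at position 33 in 43.7% and 32.9%, with overlap.

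Some 3′ fragments end in CC and lack the last A of CCA. Among ArgACG 3′ fragments with either end, 22.9%, 20.9%, 34.3% and 31.4% ended in CC in WT and 37.7%, 56.8%, 44.9% and 41.3% in NSun2−/− skin. Each NSun2−/− library was above each WT library. The means in WT and NSun2−/− skin were 17.8% and 33.3% for ArgTCG, 13.6% and 26.8% for ArgCCT, 4.47% and 10.8% for ArgTCT, and 2.90% and 6.09% for ArgCCG. For all other isoacceptors together they were 4.32% and 7.41%. Over 27 isoacceptors the two-sided exact permutation test called 0 after adjustment (0%), with 15 of 27 and 4 of 5 Arg isoacceptors at an unadjusted exact p under 0.05. Each of these 4 had the smallest possible exact p, 0.0286, which became 0.0514. Whether any passes thus depends on how many isoacceptors reach this smallest value. The higher mean in NSun2−/− skin was found for 24 of the 27.

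In ArgACG the A of the anticodon is deaminated to inosine, which is read as G in sequencing. G at position 34 (A34G) was found in 98.2%, 98.1%, 96.2% and 96.6% of the 965, 1115, 1148 and 1601 counts over that position in WT replicates 1 to 4. In NSun2−/− replicates 1 to 4 it was 99.3%, 99.7%, 99.6% and 99.2% of 1597, 1587, 1776 and 1074 counts. Nearly all reads thus carried G in both genotypes, and each NSun2−/− library was above each WT library. The means were 97.3% ± 1.06 (SD, n = 4) and 99.4% ± 0.246 (two-sided exact permutation p 0.0286).

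Other positions also carried mismatches. At position 58, ArgTCT reads held A58T in a mean of 51.2% in WT and 50.7% in NSun2−/− skin, and A58G in 45.0% and 45.2%. The ArgTCT groups overlapped, as did those of ArgACG and ArgCCT at this position. In ArgCCG, A58T ranged from 45.6% to 47.5% in WT and from 48.1% to 51.4% in NSun2−/− libraries, and A58G from 50.4% to 52.3% and from 46.9% to 50.3%. In ArgTCG, A58T ranged from 50.4% to 51.7% in WT and from 52.3% to 53.5% in NSun2−/− libraries, and A58G from 45.0% to 46.6% and from 43.1% to 44.6%. These shares of ArgCCG and ArgTCG thus lay apart by small distances, with A58T higher and A58G lower in NSun2−/− skin. In ArgCCT, C32T was found in a mean of 72.8% and 72.6%, with overlap. G26T in ArgACG was found in 18.1%, 18.4%, 12.9% and 12.8% in WT and 7.70%, 6.89%, 9.25% and 9.85% in NSun2−/− skin. T39C in ArgTCT was found in 19.2%, 23.2%, 18.2% and 18.7% in WT and 17.4%, 14.3% and 11.5% in NSun2−/− replicates 2 to 4, with replicate 1 lowest. G26T in ArgACG and T39C in ArgTCT were thus lower in every NSun2−/− library. Reads over a position come from different fragment classes in the genotypes, whose part in these values was not tested.

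Bisulphite treatment converts cytosine to uracil and leaves m5C, and the level given here is the percent of reads left unconverted at a cytosine. Cytosines that escape conversion without m5C count the same, and the deposited counts per cytosine do not allow reads with many unconverted cytosines to be removed. The levels are therefore not levels of m5C, and in NSun2−/− skin they reached 91.7% at positions of chr14.trna209-ArgACG outside 48 to 50. In Arg genes, 46, 20, 46 and 116 cytosines were listed in WT replicates 1 to 4 and 184, 93, 57 and 128 in NSun2−/− replicates 1 to 4, 185 in all. Their median coverage was 16.0, 24.0 and 18.0 reads in WT replicates 1, 2 and 4, lower in WT replicate 3, and 28.5, 19.0, 26.0 and 27.0 reads in NSun2−/− skin. Listed Arg cytosines were thus few in WT replicate 2, and only 31 met the coverage minimum of 10 reads in 3 or more of the 4 libraries of both genotypes. They lie in 3 genes, with 20 in chr17.trna995-ArgCCT, 9 in chr14.trna209-ArgACG and 2 in chr11.trna945-ArgCCG.

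Of 122736 cytosines tested with edgeR, 320 differed by 10 percentage points or more with an adjusted p under 0.05 (0.261%), and 0 of the 31 Arg cytosines, of which 0 had an unadjusted p under 0.05 and 3 without NSun2−/− replicate 3. No other tool was run on them. Among the 31, only C49 and C50 of chr14.trna209-ArgACG lie where m5C of NSun2 is found in other tRNAs. They had 10 to 29 reads in the WT libraries that list them. The count of 0 thus cannot show whether Arg tRNAs lose m5C of NSun2, since nearly all cytosines tested lie elsewhere. The median difference between the genotypes was 6.15 percentage points for the 31 and 1.13 for all. Without NSun2−/− replicate 2 the median of the 31 was −1.88, so its direction rests on that library, and without NSun2−/− replicate 3 it was 16.0.

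The 20 cytosines of chr17.trna995-ArgCCT, at chr17:23685735-23685807 (minus strand), were covered in all 8 libraries. Their mean level was 5.23%, 3.69%, 12.6% and 23.1% in WT and 17.8%, 42.2%, 1.23% and 6.79% in NSun2−/− skin. The groups overlapped fully, with the highest and the lowest value both in NSun2−/− skin. At positions 40 to 67 the mean over 9 cytosines was 7.08%, 7.03%, 25.2% and 37.3% in WT and 31.1%, 58.2%, 1.97% and 11.5% in NSun2−/− skin. At positions 2 to 35 that over 11 cytosines was 3.71%, 0.956%, 2.21% and 11.6% in WT and 6.89%, 29.1%, 0.631% and 2.97% in NSun2−/− skin. The level was higher in the 3′ part of the gene than in the 5′ part in each library, and NSun2−/− replicate 2 was highest and NSun2−/− replicate 3 lowest in both.

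C49 of chr14.trna209-ArgACG and its neighbour C50 lie where m5C of NSun2 is found in other tRNAs, and were set against the rest of the gene, a comparison chosen after seeing the data. At C49, 71.4% of 14 reads were unconverted in WT replicate 1, 60.0% of 10 in WT replicate 3 and 79.3% of 29 in WT replicate 4, and WT replicate 2 did not list it. In NSun2−/− replicates 1 to 4 it was 76.2% of 122 reads, 65.8% of 38, 8.33% of 12 and 69.1% of 55. The mean was lower in NSun2−/− skin by 15.4 percentage points, and apart from NSun2−/− replicate 3 the levels of both genotypes lay in the same range at this gene. Other genes list C49 in fewer libraries, below the coverage rule. At chr13.trna951-ArgACG, whose sequence is the same, it was 100% of 12 and 20 reads in WT replicates 3 and 4. In NSun2−/− replicates 1, 2 and 4 it was 70.0% of 50, 69.4% of 36 and 73.7% of 19 reads. At positions 56 to 72 of this gene the levels ran from 65.0% to 100% in the same WT libraries and from 73.7% to 98.0% in the same NSun2−/− libraries. There the ranges overlapped, while those of C49 did not, and this was not tested. At chr3.trna628-ArgTCT it was 61.3% of 31, 40.0% of 10 and 65.0% of 20 reads in NSun2−/− replicates 1, 3 and 4, all below WT replicate 4, the only WT library that lists it, with 10 reads. That WT library was also above NSun2−/− replicates 1 and 4 at some other cytosines of chr3.trna628-ArgTCT. It had 72.7% against 36.8% and 33.3% at position 32, and 63.6% against 50.0% and 35.3% at position 25. At positions 56 to 72 of this gene the levels overlapped. They ran from 58.3% to 69.2% in the WT library, 46.7% to 71.0% in NSun2−/− replicate 1 and 47.8% to 70.8% in NSun2−/− replicate 4. Whether the difference at chr3.trna628-ArgTCT is particular to C49 was not tested. At chr14.trna209-ArgACG, the mean of 7 cytosines at positions 56 to 72 was 52.4%, 50.6% and 61.8% in WT replicates 1, 3 and 4. It was 83.9%, 85.1%, 5.12% and 78.3% in NSun2−/− skin. C49 thus stood above the other cytosines by 19.0, 9.37 and 17.5 percentage points in WT, and differed from them by −7.74, −19.3, 3.21 and −9.19 points in NSun2−/− skin. These differences did not overlap between genotypes, although the level of C49 itself did. In NSun2−/− replicates 1, 2 and 4 the other cytosines were higher than in WT, while C49 lay in the WT range. The difference of these values between genotypes, chosen on these data, did not pass (−23.5 points, two-sided exact permutation p 0.0571, 3 WT against 4 NSun2−/− libraries). C50 had 21.4%, 20.0% and 24.1% in these WT libraries and 36.6%, 28.9%, 7.69% and 30.4% in NSun2−/− skin. The gene has both cytosines next to each other, marked by capitals with the anticodon and position 48. It lies at chr14:55136533-55136605 (plus strand).
chr14.trna209-ArgACG: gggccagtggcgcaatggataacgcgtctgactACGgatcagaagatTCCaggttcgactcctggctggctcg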

How the data were processed

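Values were read from the deposited counts per tRNA locus (Pol III), the counts per gene and read sequence (tRNA-seq), and the unconverted and converted read counts with their percent per cytosine (bisulphite). The authors aligned tRNA-seq and Pol III reads to mm9 with Bowtie, distributed reads with several matches, tested with DESeq, and called methylation with Bismark 0.7.6. Versions of Bowtie and DESeq are not given. Gene positions came from the study's supplementary list of transcribed tRNA genes or, for genes that lack one, from a match of reads to mm9. For bisulphite reads the paper names transcripts of a later assembly, GRCm38. The deposited positions were read as mm9, because after a move by 1 every one falls on C or G of mm9 in each library.

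Counts were summed per isoacceptor over all isoacceptors, filtered with filterByExpr, and tested with edgeR 4.0.16 (TMM, quasi-likelihood, R 4.3.3), with Benjamini-Hochberg adjustment over all features. DESeq2 1.42.0 was the other tool. Shares were compared with two-sided exact permutation over 70 assignments in Python 3.11.15 with numpy 2.4.6, pandas 2.3.3 and scipy 1.17.1. Sequences were read with pysam 0.24.0, and plots drawn with matplotlib 3.10.9. The code was tested on simulated data.

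The members and lists were chosen with earlier results of these data known. Named items are the 5 isoacceptors, every Arg locus bound by Pol III in WT skin with values for the top locus of each isoacceptor, the most abundant sequence per isoacceptor and class by mean CPM, the Arg cytosines that pass the coverage minimum, and the 3 isoacceptors most like Arg in 5′ fragments. The located ArgTCT genes, chr17.trna994-ArgCCG, the mismatches other than A34G, the fragment ends and the CC ends were named after their values were seen.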

Additional observations from a re-analysis of the deposited data

Results flagged for a closer look

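In groups of 4 libraries, a library was singled out when its gap to the nearest other library took up most of the range of the group, a rule by which chance flags about 1 in 20 groups. It singled out 3 of 118 groups. ArgTCT 3′ CCA fragments of NSun2−/− replicate 2 were at 1081 CPM, against 2040 to 2198 in the other NSun2−/− libraries. The share of 3′ CCA fragments among ArgACG reads was 13.6% in NSun2−/− replicate 2, against 24.1% to 24.8% in the others. The share of mature reads among ArgCCT reads was 8.71% in NSun2−/− replicate 4, against 0.897% to 2.20% in the others.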

How the results depend on the processing

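Of 466 alternatives tried on 40 results, 378 kept the direction and the side of the threshold: 129 of 163 that changed a setting, and 249 of 303 that left out a library. These counts include some that could not change side and say nothing of stability: the C49 difference with a library left out cannot go below an exact p of 0.0667 (2 against 4 libraries) or 0.100 (3 against 3). With 3 against 4 libraries, inosine and the Arg shares other than that of mature reads had an exact p of 0.0286 or 0.0571. The first value is past the threshold and the second short of it. The Arg share of mature reads was short of the threshold whichever library was left out. The division of counts by 5, the gene sets and all their alternatives, the alternatives for single sequences, and the libraries left out for composition, CC ends, ratios, inosine and C49 were chosen after seeing the data, as were the replicate block for inosine and for the mean cytosine level and the comparison without input. The cause was not tested for the differences that follow.

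With total scaling, edgeR called 1 Arg isoacceptor in place of 2 among 5′ fragments, 3 in place of 0 among 3′ CCA fragments, and 9 of 21 gene sets in place of 3 of 22. Over all features it called 22 of 39 isoacceptors in place of 6 among 3′ CCA fragments and 31 of 85 gene sets in place of 10, each lower in NSun2−/− skin with this scaling. The same scaling reversed the 3′ differences of ArgCCG (−0.86), ArgCCT (−1.34), ArgTCG (−1.16) and chr17.trna994-ArgCCG (−0.83), and that of mature ArgCCT (−0.75). For 3′ CCA fragments DESeq2 called 1 Arg isoacceptor, and edgeR without the filter 1. Mature ArgCCT was also reversed without the filter (−0.30) and with no CCA end required (−0.39). ArgCCG over all reads was reversed with counts divided by 5 (0.05). Set against the counts of the same class, the difference in Arg share was −9.83 percentage points for 3′ CCA fragments, with overlap, and 0.0358 for mature reads, reversed. The Pol III ratio was 0.11 with scaling to bound loci.

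With a library left out, edgeR called 1 to 2 Arg isoacceptors among 5′ fragments, 0 to 1 among 3′ CCA fragments, and 0 to 3 of the 11 sequences. ArgCCG over all reads ranged from −0.17 to 0.04, reversed only without NSun2−/− replicate 4, and mature ArgCCT from −0.69 to 0.36. The mean Arg cytosine level differed by −2.56 to 11.1 percentage points, reversed without NSun2−/− replicate 2. The difference in Arg share ranged from −1.25 to −0.662 for all reads, 0.0136 to 0.0185 for 5′ fragments and −1.24 to −0.652 for 3′ CCA fragments, and that in inosine from 1.80 to 2.49.

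The replicate block pairs libraries that share a number. Deviations of same-numbered tRNA-seq libraries correlated by 0.21, −0.66, 0.32 and −0.55, and those of bisulphite libraries by −0.06, −0.13, 0.31 and −0.15, so the pairing rests on the number only. With the block, edgeR called 1 Arg isoacceptor among 5′ fragments and 0 of the 11 sequences, and mature ArgCCT was at −0.13. The block gave −1.01 for the Arg share of all reads, 0.0152 for 5′ fragments, −1.0 for 3′ CCA fragments and 2.17 for inosine, where 4 pairs cannot go below an exact sign-flip p of 0.125.

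A coverage minimum of 30 reads gave no mean cytosine level, and mature reads alone gave no inosine share. Depth limits the Arg cytosines, of which 31 of 185 were covered well enough to test. The 1 NSun2−/− Pol III library allows no test.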
